A study of Mus musculus with 14 samples.

Results

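The 9 genes described here code for transporters that move organic anions, organic cations and urate across the tubule cells of the kidney. They are Slc22a6, Slc22a8, Slc22a7, Slc22a2, Slc47a1, Slc22a12, Slc22a13, Slco1a1 and Slco1a6. They were chosen by name, as the rows with these gene symbols in the deposited expression table of each mouse, and are 9 of the 21878 genes listed. The choice was made with earlier results of these data known. All 9 passed the filter on low values, which left 14912 genes for testing.

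Proximal tubule cells take up organic anions from the blood through the basolateral exchangers OAT1 (Slc22a6) and OAT3 (Slc22a8) and organic cations through OCT2 (Slc22a2), and pass cations on into the urine through the apical exchanger MATE1 (Slc47a1). Urate is recovered from the filtrate by the apical transporter URAT1 (Slc22a12). Drugs, toxins and metabolites share these routes, and in mouse kidney Slco1a1 is known as a gene with higher expression in males that depends on androgen. The transcription factor HNF4A is a known activator of organic anion transporter genes in the proximal tubule.

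Kidney RNA of 14 male C57BL/6J mice was sequenced as stranded mRNA libraries, from 3 WT control mice, 3 Cfb-/- control mice, 4 WT diabetic mice and 4 Cfb-/- diabetic mice. Cfb encodes complement factor B of the alternative complement pathway, and its deletion was global, so that every cell type lacks it. Diabetic mice had been fed a high-fat diet (HFD) with 60% of calories from fat and injected with streptozotocin (STZ), which destroys insulin-producing cells, at 60 mg/kg on 5 days. Control mice had received chow with 10% of calories from fat and citrate buffer, so that the effects of diet and STZ cannot be told apart. The labels give a time of 34 weeks for all mice without saying from when, name the genotype a knockdown, and carry one treatment text for control and diabetic mice, so that the groups were taken from the sample titles. Cfb was at 62.2 to 131 FPKM in WT control mice and 56.7 to 81.9 FPKM in WT diabetic mice, against 2.05 to 2.22 FPKM in Cfb-/- control mice and 1.13 to 1.43 FPKM in Cfb-/- diabetic mice.

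FPKM is a level per transcript length and sequencing depth, so that levels of different genes can be set side by side. The number of reads behind a value is unknown. FPKM summed to 330246 to 488196 per mouse, and the single gene Kap, an androgen-regulated kidney protein, held 10.2% to 13.9% of the total in control mice and 1.98% to 4.60% in diabetic mice. The 9 transporters together held 0.410% to 0.470% of the total in control mice and 0.207% to 0.328% in diabetic mice. Differences are given on the log2(FPKM + 0.1) scale with their standard error (SE), from limma fitted to all tested genes and all 14 mice, with Benjamini-Hochberg adjusted p-values over all tested genes. The median difference of all tested genes was not 0 but 0.29 between WT diabetic and WT control mice and 0.22 between Cfb-/- diabetic and Cfb-/- control mice.

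The transporters were set between diabetic and control mice of the same genotype to ask which of them differ in the diabetic kidney. In WT mice, 8 of the 9 fell and Slc22a13 rose at an adjusted p under 0.05. Among all tested genes, 9.97% fell and 36.2% rose by the same criterion. In Cfb-/- mice the 8 that had fallen in WT mice fell as well, against 6.4% of all tested genes, and Slc22a13 did not pass the test. The median difference of the 9 was -0.96 in WT mice and -0.95 in Cfb-/- mice. Slco1a1 changed most, and Slc22a2 least among those that fell. Relative to the median of all tested genes, the differences of the 8 lay between -4.21 and -0.73 in WT mice and between -5.04 and -0.90 in Cfb-/- mice, and those of Slc22a13 were 1.75 and 0.81. With the criteria of the study, an unadjusted p under 0.05 and a fold over 2 or under 0.5, there were 4 lower and 1 higher in WT mice, against 1.82% and 15.6% of all tested genes, and 4 lower and 0 higher in Cfb-/- mice, against 1.66% and 13.3%. Since RNA came from whole tissue, fewer cells that express a gene and less of its RNA per cell cannot be told apart.

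The values of diabetic and control mice did not overlap for 7 lower genes and 1 higher gene in WT mice, and for 8 lower genes in Cfb-/- mice. Of all tested genes, 9.84% were lower and 35.5% higher without overlap in WT mice, and 8.64% were lower without overlap in Cfb-/- mice. An exact two-sided permutation test on 4 against 3 mice cannot give a p below 0.0571, which each gene without overlap reached.

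**Figure D1:**
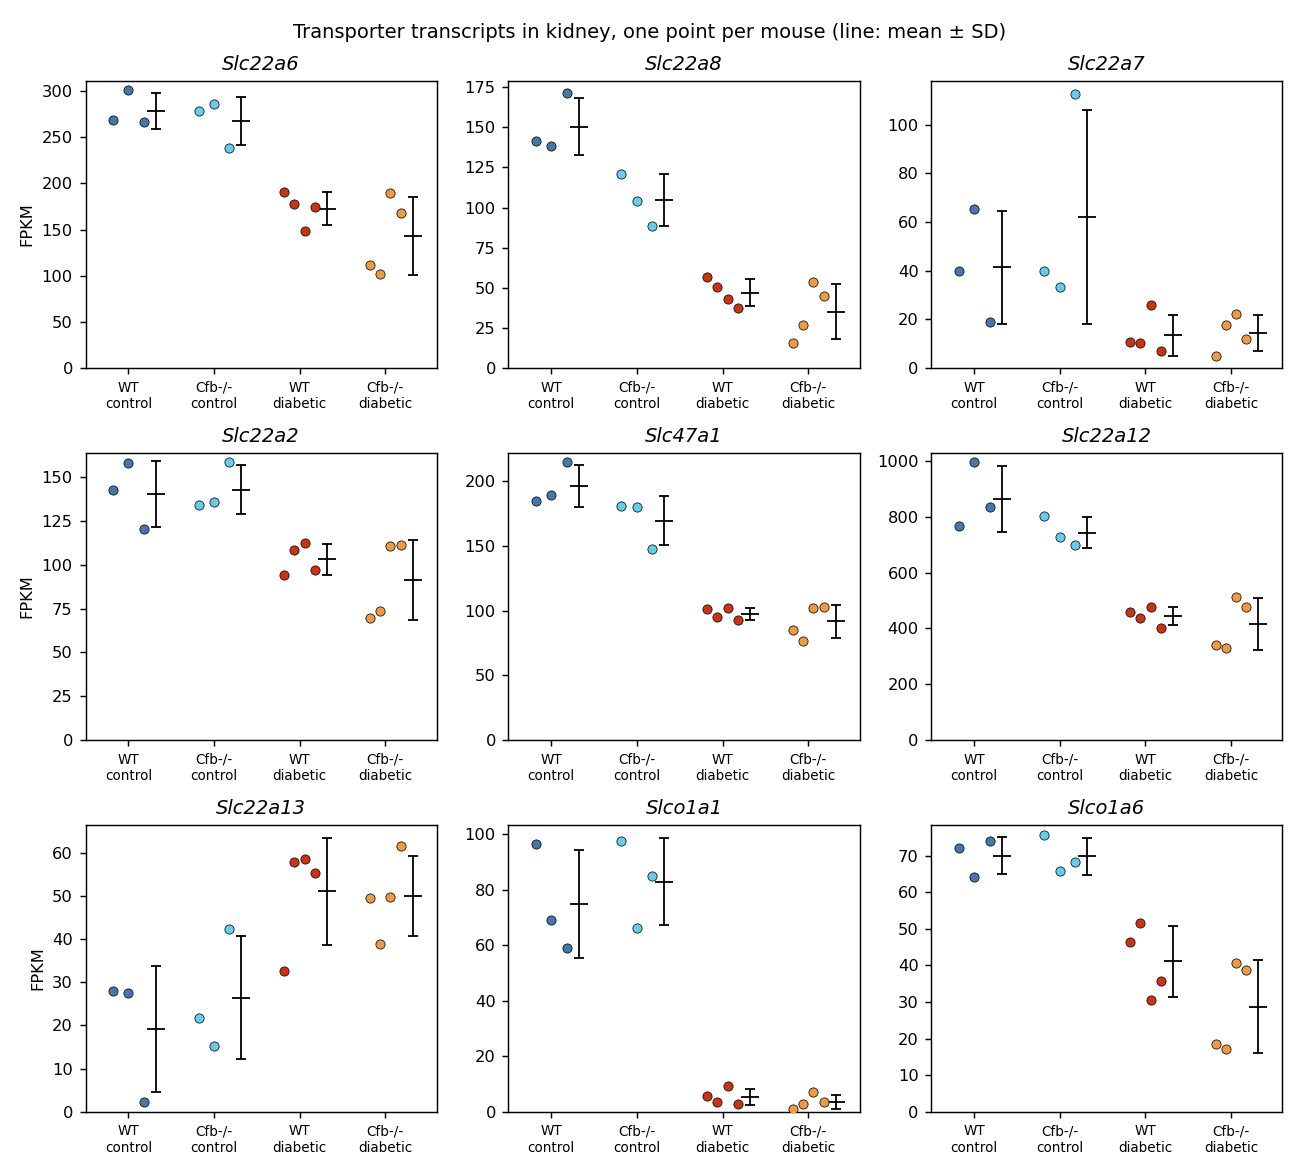
FPKM of each transporter on a linear axis from 0, with 1 point per mouse in WT control (n = 3), Cfb-/- control (n = 3), WT diabetic (n = 4) and Cfb-/- diabetic mice (n = 4), and a line with bar for mean ± SD. All panels but that of Slc22a13 show diabetic mice below the controls of their genotype, except that Slc22a7 overlaps in WT mice, and the points of Slco1a1 in diabetic mice lie between 0.827 and 9.14 FPKM.

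The organic anion uptake transporters fell in diabetic mice of both genotypes. OAT1 and OAT3, the main routes by which the tubule clears para-aminohippurate and many drugs, are encoded by neighbouring genes on the plus strand of chromosome 19, Slc22a8 at chr19:8591254-8611835 and Slc22a6 at chr19:8617996-8628299 (GRCm38.p6), 6160 bp apart. Their promoters are shown because both genes fell together and lie side by side. No letter is in capitals, since the letters searched for were found in neither. Each line gives the 250 bases before the transcript start in RefSeq, 5′ to 3′ on the plus strand, at chr19:8592932-8593181 for Slc22a8, whose RefSeq gene also has an earlier start, and at chr19:8617746-8617995 for Slc22a6.

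Slc22a8: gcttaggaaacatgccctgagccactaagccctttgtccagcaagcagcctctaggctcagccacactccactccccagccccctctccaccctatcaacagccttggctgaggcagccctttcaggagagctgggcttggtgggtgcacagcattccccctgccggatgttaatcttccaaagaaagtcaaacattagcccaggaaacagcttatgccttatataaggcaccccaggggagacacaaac

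Slc22a6: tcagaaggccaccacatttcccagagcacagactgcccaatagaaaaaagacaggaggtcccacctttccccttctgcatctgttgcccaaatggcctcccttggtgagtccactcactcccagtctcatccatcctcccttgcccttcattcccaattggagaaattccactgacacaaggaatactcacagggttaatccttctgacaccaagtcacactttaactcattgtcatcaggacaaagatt

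Promoters of 250 bases before to 50 bases after the start were at hand for 7 of the 9 transporters, Slc22a7 and Slc47a1 being the others. On both strands the letters CAAAGTCCA, a form of the HNF4A site, were in 0 of the 7, and in 0.475% of 32851 promoters. This says only that these letters are not in these windows.

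Slc22a6 was at 269, 301 and 266 FPKM in WT control mice and at 190.2, 178, 148 and 174 FPKM in WT diabetic mice. In Cfb-/- control mice it was at 278, 286 and 239 FPKM, and in Cfb-/- diabetic mice at 112, 102, 189 and 168 FPKM. Every diabetic mouse was below every control mouse of either genotype, and the first and second Cfb-/- diabetic mice were the lowest. The difference was -0.69 (SE 0.18, adjusted p = 0.00749) in WT mice and -0.95 (SE 0.18, adjusted p = 0.00118) in Cfb-/- mice. After quantile normalization the adjusted p in WT mice was 0.0856, at a difference of -0.42.

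Slc22a8 was at 142, 139 and 171 FPKM in WT control mice and at 56.7, 50.6, 43.0 and 37.6 FPKM in WT diabetic mice. It was at 121, 104 and 88.3 FPKM in Cfb-/- control mice and at 16.0, 26.9, 53.4 and 44.8 FPKM in Cfb-/- diabetic mice. The groups were again apart, and the decrease was larger than that of its neighbour Slc22a6, a comparison between genes that was not tested. Slc22a8 in WT diabetic mice was 3.22-fold lower (log2 difference -1.69, SE 0.31, adjusted p = 0.000628), and in Cfb-/- diabetic mice 3.25-fold lower (log2 difference -1.70, SE 0.31, adjusted p = 0.000714), than in their controls.

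Slc22a7 encodes OAT2, which carries anions and nucleobases, and lies at chr17:46432185-46438477. It varied more within groups than the other anion uptake transporters, with 40.1, 65.2 and 18.8 FPKM in WT control mice and, among WT diabetic mice, 10.6, 10.3, 25.9 and 7.23 FPKM. The third WT diabetic mouse was above the third WT control mouse, so that these groups overlapped. In Cfb-/- control mice it was at 39.8, 33.4 and 113 FPKM, and in Cfb-/- diabetic mice at 5.08, 17.8, 22.1 and 12.0 FPKM, without overlap. The coefficient of variation was between 51.8% and 70.9% in the 4 groups. The difference was -1.61 (SE 0.57, adjusted p = 0.0322) in WT mice and -2.08 (SE 0.57, adjusted p = 0.0111) in Cfb-/- mice. In WT mice the call of Slc22a7 ended after quantile normalization (adjusted p = 0.0502) and on leaving out any one of 5 mice, which were WT diabetic mice 1, 2 and 4 and WT control mice 1 and 2, with adjusted p between 0.0639 and 0.167, and in Cfb-/- mice it ended without the third Cfb-/- control mouse (adjusted p = 0.0632, difference -1.54).

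Both organic cation transporters fell as well. Slc22a2, at chr17:12584189-12628489 next to its relative Slc22a3, was at 143, 158 and 120.3 FPKM in WT control mice and at 94.1, 108, 113 and 96.9 FPKM in WT diabetic mice. It was at 134, 136 and 159 FPKM in Cfb-/- control mice and at 69.7, 73.5, 111 and 111 FPKM in Cfb-/- diabetic mice. The Cfb-/- diabetic mice fell into a lower and a higher pair, with the same first and second mouse low as for Slc22a6. The difference was -0.44 (SE 0.17, adjusted p = 0.0426) in WT mice and -0.68 (SE 0.17, adjusted p = 0.00607) in Cfb-/- mice. The call of Slc22a2 in WT mice was close to the threshold, and ended with no filter on low values (adjusted p = 0.0556), after quantile normalization (difference -0.23, adjusted p = 0.291), and on leaving out any one of 6 mice, which were WT diabetic mice 1, 2 and 4, WT control mice 1 and 2 and the first Cfb-/- control mouse, with adjusted p between 0.0516 and 0.170.

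Slc47a1, at chr11:61343400-61378842, encodes the exporter MATE1 and lies 539 bp from its relative Slc47a2. It was at 101, 94.7, 102 and 92.4 FPKM in WT diabetic mice, against 185, 189 and 215 FPKM in WT control mice. It was at 85.3, 76.7, 102 and 103 FPKM in Cfb-/- diabetic mice against 181, 180.2 and 148 FPKM in Cfb-/- control mice. No diabetic mouse reached the lowest control. The 2.01-fold decrease in WT mice had an adjusted p of 2.70e-05 (log2 difference -1.01, SE 0.12), and the 1.85-fold decrease in Cfb-/- mice one of 6.95e-05 (log2 difference -0.89, SE 0.12).

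Of the urate transporters, Slc22a12 fell in both genotypes, while Slc22a13 rose in WT mice and did not pass in Cfb-/- mice. The difference between the 2 genes was not tested. Slc22a12, at chr19:6535854-6543070 on the minus strand, encodes URAT1 and was the most abundant of the 9 in every mouse. It was at 766, 997 and 835 FPKM in WT control mice and at 460.4, 439, 477 and 402 FPKM in WT diabetic mice. In Cfb-/- control mice it was at 804, 730.0 and 698 FPKM, and in Cfb-/- diabetic mice at 342, 329, 513 and 476 FPKM. All diabetic mice were below all control mice, with a difference of -0.96 (SE 0.16, adjusted p = 0.000366) in WT mice and -0.87 (SE 0.16, adjusted p = 0.000903) in Cfb-/- mice.

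Slc22a13 encodes OAT10, an apical exchanger of urate and nicotinate, and lies at chr9:119192966-119209105, 2535 bp from Slc22a14. It was at 27.9, 27.4 and 2.22 FPKM in WT control mice and at 32.7, 57.8, 58.6 and 55.2 FPKM in WT diabetic mice, where each mouse was above each control. In Cfb-/- control mice it was at 21.6, 15.3 and 42.4 FPKM, and in Cfb-/- diabetic mice at 49.6, 38.8, 49.8 and 61.5 FPKM, with overlap. The difference was 2.04 (SE 0.65, adjusted p = 0.0207) in WT mice and 1.03 (SE 0.65, adjusted p = 0.246) in Cfb-/- mice. The third WT control mouse decided the size in WT mice and the spread in both, since without it the difference was 0.84 (adjusted p = 0.0559) in WT mice, and 1.03 in Cfb-/- mice passed the test (adjusted p = 0.0151). Fitted on the compared groups alone, the adjusted p of Slc22a13 was 0.0547 in WT mice and 0.0313 in Cfb-/- mice. Among control mice, the third WT control mouse was also the lowest for Slc22a7, at 18.8 FPKM, and the third Cfb-/- control mouse was the highest control mouse for both genes, at 42.4 FPKM for Slc22a13 and 113 FPKM for Slc22a7.

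The organic anion transporting polypeptides Slco1a1 and Slco1a6, both on the minus strand of chromosome 6 at chr6:141907281-141946962 and chr6:142085761-142186177, carry bulky anions such as steroid conjugates and bile acids. Slco1a1 was at 96.5, 69.0 and 58.9 FPKM in WT control mice and at 5.83, 3.40, 9.14 and 2.77 FPKM in WT diabetic mice. It was at 97.5, 66.3 and 84.8 FPKM in Cfb-/- control mice and at 0.827, 2.89, 7.13 and 3.46 FPKM in Cfb-/- diabetic mice. The highest diabetic mouse was far below the lowest control mouse. On the log2(FPKM + 0.1) scale Slco1a1 was 15.1-fold lower in WT diabetic mice (log2 difference -3.92, SE 0.53, adjusted p = 7.04e-05) and 28.2-fold lower in Cfb-/- diabetic mice (log2 difference -4.82, SE 0.53, adjusted p = 1.82e-05). Of the 14912 tested genes, 3 had a more negative difference in WT mice and 0 in Cfb-/- mice. Its promoter, the 250 bases before the RefSeq start, at chr6:141946963-141947212 and written 5′ to 3′ on the minus strand, is given because no other transporter of the 9 changed as much. It did not hold the letters searched for above.

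Slco1a1: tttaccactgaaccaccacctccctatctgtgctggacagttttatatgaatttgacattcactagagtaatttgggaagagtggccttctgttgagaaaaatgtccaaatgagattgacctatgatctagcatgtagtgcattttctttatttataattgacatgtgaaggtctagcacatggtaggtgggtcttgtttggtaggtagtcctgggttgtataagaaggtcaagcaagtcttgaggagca

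Slco1a6 was at 72.0, 64.2 and 73.9 FPKM in WT control mice and at 46.4, 51.6, 30.7 and 35.7 FPKM in WT diabetic mice. It was at 75.5, 65.7 and 68.4 FPKM in Cfb-/- control mice and at 18.5, 17.2, 40.7 and 38.6 FPKM in Cfb-/- diabetic mice. Its level in controls was like that of Slco1a1, but its decrease was smaller, with a difference of -0.80 (SE 0.27, adjusted p = 0.0280) in WT mice and -1.39 (SE 0.27, adjusted p = 0.00136) in Cfb-/- mice. In WT mice the call of Slco1a6 ended after quantile normalization (adjusted p = 0.0829) and on leaving out any one of 5 mice, which were WT diabetic mice 3 and 4 and the 3 WT control mice, with adjusted p between 0.0576 and 0.0756. How reads shared by related genes of the Slco1a cluster were assigned is not given in the sources used here. Their neighbour Slco1a4, picked out after its values were seen, was at group means of 0.235 to 0.374 FPKM.

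**Figure D2:**
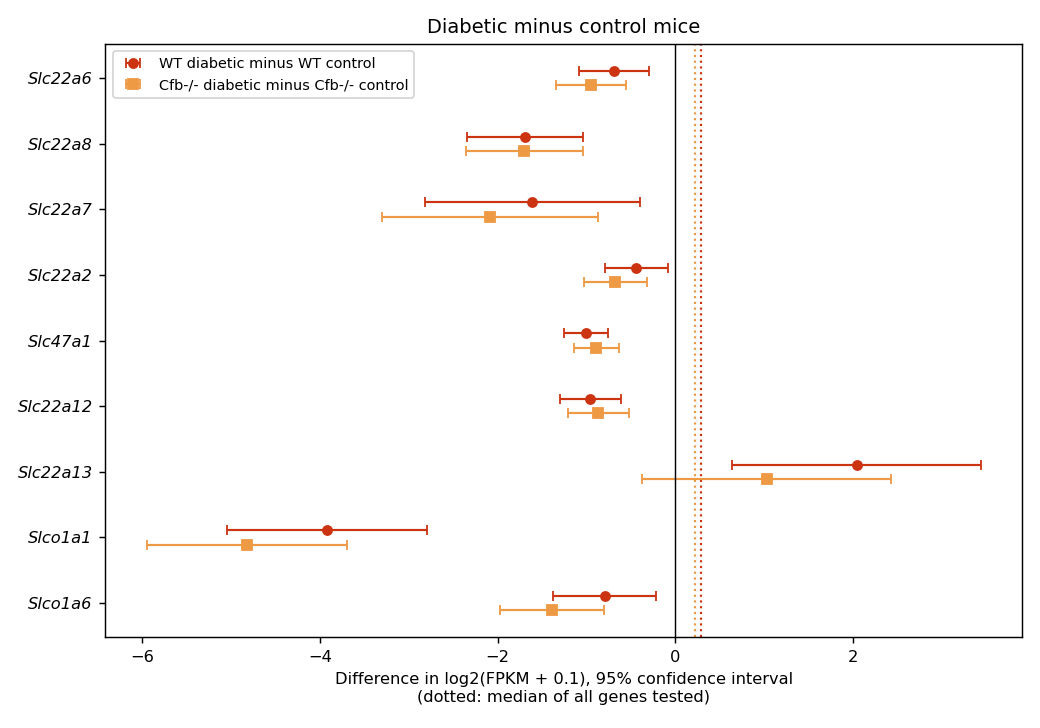
Difference in log2(FPKM + 0.1) between diabetic and control mice for each transporter, with 95% confidence intervals, as circles for WT and squares for Cfb-/- mice, and dotted lines at the median of all tested genes (0.29 and 0.22). Slco1a1 lies at -3.92 and -4.82, the other 7 that fell lie between -2.08 and -0.44, and Slc22a13 lies at 2.04 and 1.03, its interval in Cfb-/- mice crossing 0.

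The order of levels changed with these differences. Slc22a12 led in all groups with 44.6% to 47.6% of the summed FPKM of the 9, and Slc22a6 came second with 15.2% to 17.7%. In WT control mice Slc47a1, Slc22a8 and Slc22a2 followed by their means, with overlapping ranges of Slc22a8 and Slc22a2. There Slc22a8 was above Slc22a2 in 1 of 3 mice. In Cfb-/- control mice the order was Slc47a1, Slc22a2 and Slc22a8, with overlapping ranges of Slc47a1 and Slc22a2, while Slc22a2 was above Slc22a8 in 3 of 3 mice. By its mean Slco1a1 was the sixth in both control groups, where its range overlapped that of the next gene, Slco1a6, and it was above Slco1a6 in 2 of 3 WT and 3 of 3 Cfb-/- control mice. It was the ninth in both diabetic groups, with 4.07% and 4.96% of the sum against 0.542% and 0.410%. Slc22a13 was the ninth in both control groups and the fifth in both diabetic groups, at 1.04% and 1.58% of the sum against 5.23% and 5.72%. In diabetic mice the ranges of Slc22a13 and Slc22a8 and of Slc22a8 and Slco1a6 overlapped, with the first of each pair higher in 3 of 4 mice of each genotype. The ranges of Slc22a7 and Slco1a1 overlapped as well, but within each mouse Slc22a7 was the higher in 4 of 4 WT and 4 of 4 Cfb-/- diabetic mice.

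Cfb-/- mice were set against WT mice to ask whether transporter levels differ with the deletion. In control mice, 0 of the 9 passed the test by limma, and 0 had an unadjusted p under 0.05, against 17.5% of all tested genes. Only Cfb itself (difference -5.48, adjusted p = 7.19e-09) was called among all tested genes, which is 0.00671%. The differences ran from -0.53 for Slc22a8 (95% confidence interval -1.23 to 0.17) to 0.998 for Slc22a13 (interval -0.50 to 2.49), and that of Slc22a13 was -0.20 without the third WT control mouse. Slc22a8 at 88.3 to 121 FPKM and Slc47a1 at 148 to 181 FPKM in Cfb-/- control mice were below all WT control mice without passing the test, and 7.12% of all tested genes were lower without overlap. With 3 against 3 mice, an exact permutation test cannot give a p below 0.1.

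In diabetic mice, 0 of the 9 passed the test, and 1 had an unadjusted p under 0.05, against 3% of all tested genes. This was Slco1a6, with a difference of -0.59 (95% confidence interval -1.13 to -0.05, unadjusted p = 0.0331 and adjusted p = 1 by limma), and its values overlapped between the groups. The median difference of the 9 was -0.20, against 0.04 for all tested genes. Slc22a13 was at -0.01, and at 0.03 after quantile normalization. For Slc22a2, Slc22a6, Slc22a8, Slc22a12, Slc47a1 and Slco1a6, the first and second Cfb-/- diabetic mice were the lowest of all mice. The differences of Slc22a8 (-0.54, interval -1.15 to 0.07), Slco1a1 (-0.74, interval -1.78 to 0.31) and Slc22a6 (-0.32, interval -0.68 to 0.05) had intervals that include 0. So did those of the others but Slco1a6, and among them Slc47a1 was bounded most closely, by -0.33 and 0.14. A p that misses the threshold does not show that the levels are alike. The only tested gene called was again Cfb (difference -5.65, adjusted p = 6.24e-10).

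The difference of the diabetes effect between the genotypes was tested as an interaction. It was called for 0 of the 9 and for 0% of all tested genes, and 0 of the 9 had an unadjusted p under 0.05, against 5.77% of all tested genes. The estimates ran from -1.01 for Slc22a13 and -0.90 for Slco1a1 to 0.12 for Slc47a1, which was at -0.03 after quantile normalization, with intervals that all include 0, such as -2.99 to 0.97 for Slc22a13 and -2.49 to 0.70 for Slco1a1. That Slc22a13 passed the test in WT and not in Cfb-/- mice is therefore not shown to be a difference between the genotypes (adjusted p = 0.796 by limma).

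**Figure D3:**
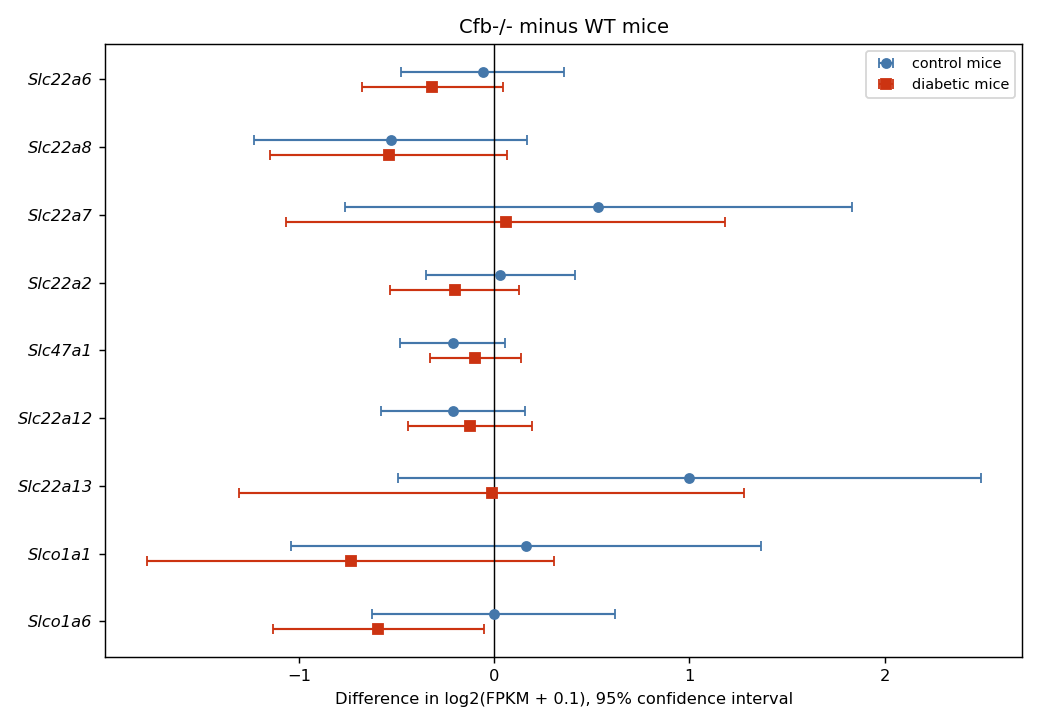
Difference in log2(FPKM + 0.1) between Cfb-/- and WT mice for each transporter with 95% confidence intervals, as circles for control mice (n = 3 and 3) and squares for diabetic mice (n = 4 and 4). Every interval includes 0 but that of Slco1a6 in diabetic mice, which runs from -1.13 to -0.05.

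Levels of most of the 9 tended to move together from mouse to mouse. Their summed FPKM was 1741 to 2009 in WT control mice, 1618 to 1752 in Cfb-/- control mice, 904 to 1007 in WT diabetic mice and 685 to 1089 in Cfb-/- diabetic mice. Within Cfb-/- diabetic mice, the first and second mouse were at 699 and 685, and the other two at 1089 and 1018. These first and second mice were the lowest of the 14 for Slc22a2, Slc22a6, Slc22a8, Slc22a12, Slc47a1 and Slco1a6. After removing group means, the 36 pairs of transporters had a median Pearson r of 0.618 over 14 mice. Above 0 were 32 pairs, and above 0.5 were 21, and the shares over all pairs of tested genes were not computed. Slc22a13 and Slc22a7 had r near 0 with several others, such as 0.050 and 0.048 with Slc22a6. Slc22a6 and Slco1a6 were closest (r = 0.885), and Slc22a13 and Slc47a1 were at the other end (r = -0.400). These correlations are a description, since all genes of a mouse share its library and its tissue piece.

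Some proximal tubule markers were also lower in diabetic mice. Of 13 markers, 6 fell and 0 rose in each diabetes comparison, with a median difference of -0.48 in WT mice and -0.82 in Cfb-/- mice, and 0 of the 13 were at 0 in all mice of a group. Of all tested genes, 9.97% fell and 36.2% rose in WT mice, with a median of 0.29. In Cfb-/- mice 6.4% of all tested genes fell and 27.4% rose, with a median of 0.22. Slc5a2, the glucose transporter SGLT2, was at differences of -2.99 and -2.004, and Slc34a1, the main phosphate transporter of the brush border, at -1.34 and -1.29, whereas the water channel Aqp1 (0.29 and -0.05) and the amino acid transporter subunit Slc3a1 (-0.003 and -0.20) did not pass the test. The summed FPKM of the 13 was 7945 to 9102 in WT control, 6725 to 7350 in Cfb-/- control, 3608 to 4606 in WT diabetic and 2785 to 4441 in Cfb-/- diabetic mice. Miox, Slc34a1 and Slc27a2 held most of this sum, with means of 2846, 1776 and 1764 FPKM in WT control mice. A score, the mean log2(FPKM + 0.1) of the markers, was 6.74 and 6.98 in the first and second Cfb-/- diabetic mice and 7.11 to 7.73 in the other diabetic mice, against at least 7.99 in every control mouse.

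**Figure D4:**
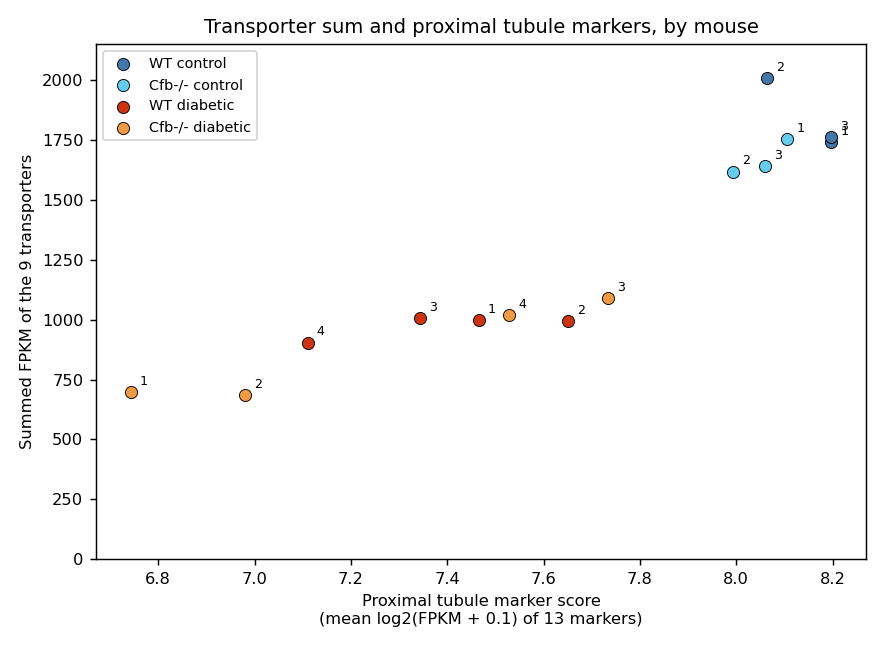
Summed FPKM of the 9 transporters (linear axis from 0) against the proximal tubule marker score of each mouse (mean log2(FPKM + 0.1) of 13 markers), with 1 numbered point per mouse coloured by group. The 6 control mice sit at sums of 1618 to 2009 and scores of at least 7.99, and the first and second Cfb-/- diabetic mice sit lowest on both axes.

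With this score as a covariate in the fit, Slc22a12 (-0.54, adjusted p = 0.0458), Slc47a1 (-0.76, adjusted p = 0.00652) and Slco1a1 (-2.37, adjusted p = 0.0137) had an adjusted p under 0.05 in WT mice, and Slc47a1 (-0.63, adjusted p = 0.0286) and Slco1a1 (-3.18, adjusted p = 0.00788) in Cfb-/- mice. The other calls ended. Of the 14912 tested genes, 4025 were called in WT and 1020 in Cfb-/- mice with the covariate, against 6879 and 5038 without it. For Slc22a13 in WT mice the difference stayed at 2.06, against 2.04 without the covariate, while its SE grew and the call ended (adjusted p = 0.134). For Slc22a8 the difference with the covariate was -0.54 (adjusted p = 0.0609) in WT and -0.48 (adjusted p = 0.186) in Cfb-/- mice, for Slc22a6 -0.15 and -0.38, and for Slc22a7 -0.78 and -1.20, whereas Slc22a2 and Slco1a6 in WT mice were at 0.03 and 0.21, above 0. The score itself separated control from diabetic mice without overlap, so that the score and diabetes cannot be fully told apart in this fit.

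Markers of other kidney compartments were read beside these values, and their part in the results was not tested. Injured tubule markers rose in 10 of 10 in both genotypes (median differences 2.54 and 2.58), and their summed FPKM was 375 to 499 in control mice and 1512 to 2998 in diabetic mice. Immune markers rose in 6 of 6 in WT and 4 of 6 in Cfb-/- mice, thick limb markers in 3 and 2 of 5, endothelial markers in 2 and 3 of 5, podocyte markers in 2 and 5 of 5, and distal and collecting duct markers in 2 and 1 of 9 with 1 of 9 lower in WT mice. Several of these shares lie near the 36.2% and 27.4% of all tested genes that rose, and they moved with the scaling. Podocyte markers rose in 0 and 5 of 5 with median-ratio scaling and in 1 and 3 of 5 after quantile normalization, and thick limb markers in 2 and 1 and in 4 and 2 of 5. After quantile normalization immune markers rose in 4 and 3 of 6. Urothelium markers rose in 6 of 6 in WT mice and 0 of 6 in Cfb-/- mice, at a summed FPKM of 0.279 to 0.643 in WT control, 0.607 to 8.89 in Cfb-/- control, 0.690 to 46.3 in WT diabetic and 1.22 to 3.15 in Cfb-/- diabetic mice. Adipocyte markers rose in 5 of 5 and 1 of 5, at 16.1 to 39.2 FPKM in control and 32.3 to 97.0 FPKM in diabetic mice, and 2 of the 5 were at 0 in all Cfb-/- diabetic mice and 1 in all WT control mice.

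The wider set of solute transporters of the tubule held genes that rose and genes that fell. Of 50 further transporter genes and scaffold proteins that anchor them, 44 could be tested. In WT mice 13 rose, 15 fell and 16 did not pass, and in Cfb-/- mice 12 rose, 15 fell and 17 did not pass. Of all tested genes, 36.2% rose and 9.97% fell in WT mice, and 27.4% rose and 6.4% fell in Cfb-/- mice. The medians of the 44 were 0.0002 and -0.12, against 0.29 and 0.22 for all tested genes. After quantile normalization 7 rose and 16 fell in WT and 7 rose and 18 fell in Cfb-/- mice, so that the even split did not hold under that scaling. As deposited, 10 rose and 13 fell in both genotypes, and 0 of the 44 differed by genotype in control or diabetic mice at an adjusted p under 0.05.

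Among those that fell in both genotypes, the lactate transporter Slc5a12 was at differences of -2.36 (SE 0.48, adjusted p = 0.00152) and -1.84 (SE 0.48, adjusted p = 0.00916). It was followed by Slc22a28 (-1.67 and -1.87) and Slc22a30 (-1.23 and -1.75), members of the rodent organic anion transporter cluster, by the urate and phosphate transporter Slc17a3 (-1.17 and -1.62), and by the prostaglandin-carrying Slc22a22 (-1.31 and -1.34). Pdzk1, the gene of the scaffold protein that binds URAT1, was at -0.54 and -0.70, both past the test. Pdzk1, and Abcc2, Abcc5 and Abcc6 below, were picked out after their values were seen. Among those that rose in both were the efflux pumps Abcc3 (2.80 and 2.21), Abcc4 (2.09 and 1.92) and Abcc1 (1.27 and 1.01), together with Slco4a1 (3.02 and 1.36) and the prostaglandin transporter Slco2a1 (1.19 and 0.89). Abcc4, which pumps organic anions into the urine, was at a mean of 4.46 ± 1.18 FPKM (SD, n = 3) in WT control and 18.9 ± 2.08 FPKM (SD, n = 4) in WT diabetic mice. Members of the ABCC family went different ways, since Abcc2, another apical pump of anions, did not pass (0.42 and 0.10), Abcc5 rose in WT mice and did not pass in Cfb-/- mice, and Abcc6 fell in WT mice (-0.51, adjusted p = 0.038) and did not pass in Cfb-/- mice.

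**Figure D5:**
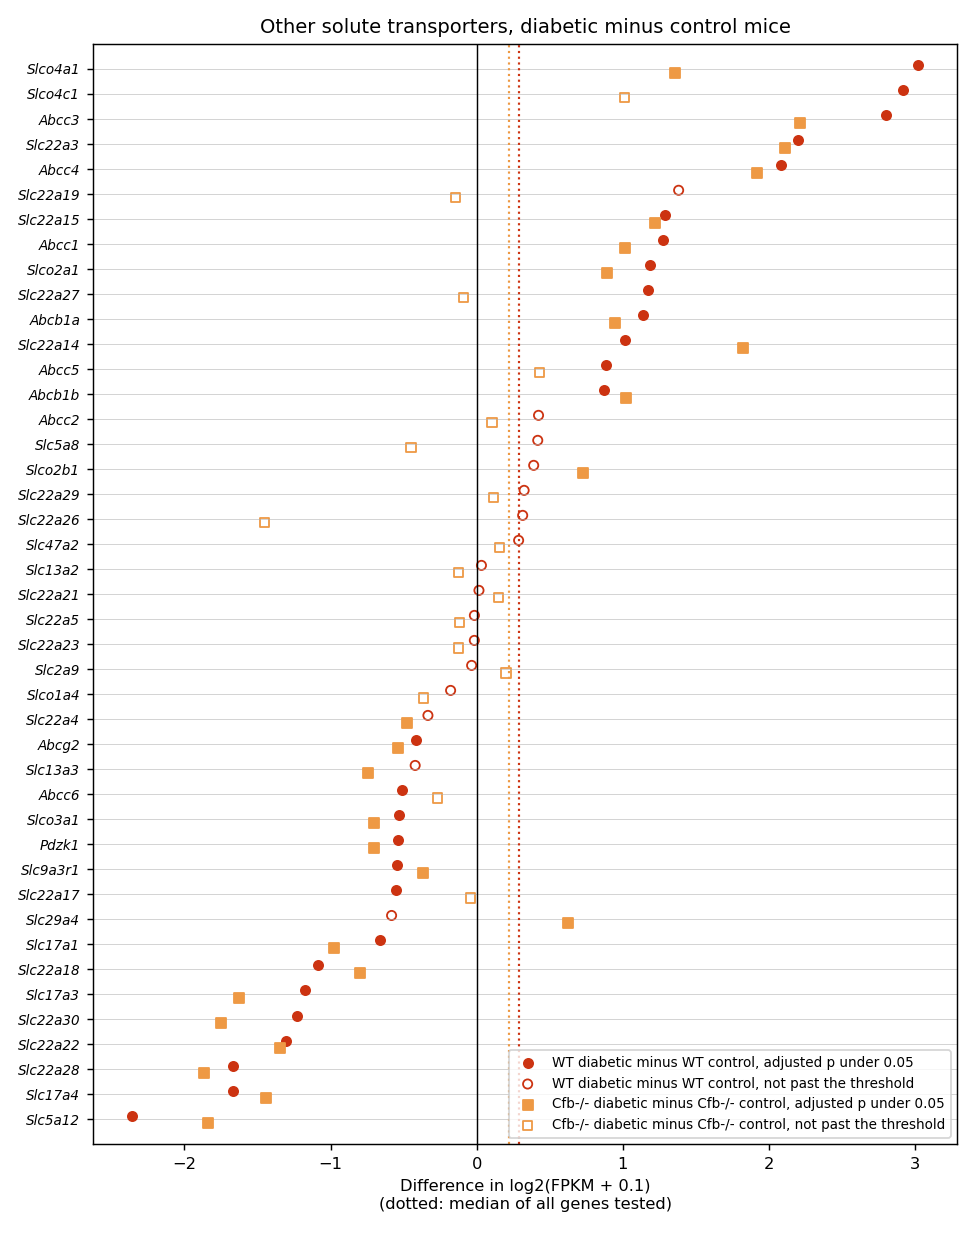
Difference in log2(FPKM + 0.1) between diabetic and control mice for tested genes of the wider transporter list, with circles for WT and squares for Cfb-/- mice, filled at an adjusted p under 0.05 and open otherwise, with dotted lines at the medians of all tested genes. In WT mice Slco4a1 (3.02) stands highest, followed by Slco4c1, Abcc3, Slc22a3 and Abcc4, and Slc5a12 (-2.36) stands lowest.

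Of 14 transcription factors and receptors listed as possible regulators, 6 rose and 1 fell in WT mice and 5 rose and 1 fell in Cfb-/- mice. These shares lie near those of all tested genes, of which 36.2% rose and 9.97% fell in WT mice. In Cfb-/- mice 27.4% of all tested genes rose and 6.4% fell. With median-ratio scaling 4 of the 14 rose and 4 fell in WT and 5 rose and 3 fell in Cfb-/- mice. After quantile normalization 4 of the 14 rose and 2 fell in WT and 3 rose and 3 fell in Cfb-/- mice. The one that fell on the values as deposited was Hnf4a, a nuclear receptor of the proximal tubule, with differences of -0.75 (adjusted p = 0.00206) and -0.79 (adjusted p = 0.00175). Those with a mean FPKM of at least 1 that rose in both were the prolactin receptor Prlr (2.86 and 2.96), Ahr (1.25 and 0.88), Cebpb (0.56 and 0.79) and Nfe2l2 (0.54 and 0.54). Of Ahr, the rise in Cfb-/- mice did not pass after quantile normalization, and of Cebpb that in WT mice did not pass after median-ratio scaling.

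Slco1a1 was read beside other genes with a sex bias in mouse kidney. Of 5 genes that are higher in males and depend on androgen, 4 fell in both genotypes, namely Kap (-2.08 and -2.10), Cyp2j13 (-2.46 and -2.56), Odc1 (-2.01 and -2.56) and Slc7a13 (-0.97 and -1.14), while Cyp7b1 did not pass (-0.06 and -1.64). Of all tested genes, 9.97% fell in WT mice and 6.4% in Cfb-/- mice. After quantile normalization 2 of the 5 fell in WT mice, with a median of -0.64 against -2.01 as deposited, and 3 of the 5 in Cfb-/- mice. Of 4 genes that are higher in females, 4 rose in WT mice and 2 in Cfb-/- mice. Prlr and Abcc3 rose in both genotypes, and Cyp4a14 (5.48) and Slc7a12 (2.52) in WT mice. The share of all tested genes that rose was 36.2% for WT and 27.4% for Cfb-/- mice. Median-ratio scaling left 3 of the 4 higher for WT and 2 for Cfb-/- mice. Quantile normalization gave 3 of the 4 higher for each genotype. Prlr and Abcc3 are also in the lists above. Hormone levels were not analysed here.

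For each transporter the genes closest to it in deviation from the group mean were sought among 11395 genes over the 14 mice. The closest were Bhmt2 for Slc22a2 (r = 0.952), Qprt for Slc22a6 (0.947), Akr1c14 for Slc22a7 (0.882), Mep1b for Slc22a13 (0.985), Dao for Slc47a1 (0.919), Acsm1 for Slco1a1 (0.900) and Suclg2 for Slco1a6 (0.972). The second closest were, in the same order, Vil1 (0.933), Rars2 (0.933), Akr1c18 (0.877), Methig1 (0.984), Pdzd3 (0.912), Ugt2b38 (0.850) and Slc25a15 (0.943). For Slc22a8 the second closest was Slc34a1 (0.948), and for Slc22a12 it was Folr1 (0.912). Leaving out single mice moved the r of Ugt2b38 with Slco1a1 most, to between 0.661 and 0.919. These are descriptions over mice that share libraries, with no p.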

How the data were processed

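Kidney RNA of 14 mice was measured by RNA-seq. The submitters' processing notes name Trimmomatic, HISAT2, Cufflinks, HTSeq, DESeq and the build GRCm38.p6, with no versions, and the study's methods give differential expression by DESeq2 on size factors. The authors deposited 1 table per mouse with an expression value per gene, whose unit is not named in the files. The values were read as FPKM from their decimals, their unequal totals and the use of Cufflinks, and the deposited FPKM values were not rescaled. Read counts were not used here, so that the depth is unknown and no counting interval is given.

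Groups were read from the sample titles. Log2(FPKM + 0.1) was fitted with limma 3.58.1 (R 4.3.3), using a trended prior and 1 mean for each group of the 14 mice. Genes at or above an FPKM of 0.1 in 3 or more mice were tested, 14912 of 21878. Contrasts were diabetic against control mice within genotype, Cfb-/- against WT mice within treatment, and the interaction, with Benjamini-Hochberg adjustment over all tested genes. A count test needs reads, and this fit stood in for it. For single genes an exact permutation test, two-sided, was added. Tables and figures were made in Python 3.11.15 with matplotlib 3.10.9, pandas 2.3.3, scipy 1.17.1 and numpy 2.4.6. This fit was tested on simulated data with independent noise for each gene, which do not cover genes that move together in a mouse.

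The 9 transporters, the gene lists and the tests were chosen with earlier results of these data known. Named genes are the 9, Cfb, up to 5 higher and 5 lower genes of the wider list with a mean FPKM of at least 1 that passed in both diabetes comparisons, ranked by mean log2 difference, regulators by the same threshold, list markers, and the 2 genes with the highest r for each transporter. A few genes that the rule names are not reported here. No list was tested as a set. Alternatives were a pseudocount of 1, no filter or a filter at an FPKM of 1, median-ratio scaling, quantile normalization, a block for the replicate number, a fit of the compared groups alone, the proximal tubule score as covariate, and leaving out each mouse. Gene positions and promoters are those of RefSeq for GRCm38.p6. The labels give no batch or date of sequencing.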

Additional observations from a re-analysis of the deposited data

Results flagged for a closer look

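In groups of 4 mice, 18 combinations of transporter and group were screened for a mouse far from the others, and 1 stood out. Chance flags about 1 in 20 combinations, so that 1 of 18 is near the number that chance gives. The flagged value was Slc22a13 in the first WT diabetic mouse, at 32.7 FPKM against 55.2 to 58.6 FPKM in the other 3. Groups of 3 mice were not screened.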

How the results depend on the processing

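All 8 transporters that fell kept their direction in both genotypes under the other scalings, pseudocount, filters, block, compared groups alone and single-mouse omissions, and Slco1a1, Slc22a8, Slc22a12 and Slc47a1 also kept their calls there in both. The number of transporters called between diabetic and control mice, 9 in WT and 8 in Cfb-/- mice, was 5 in WT mice after quantile normalization, and 3 in WT and 2 in Cfb-/- mice with the proximal tubule score as covariate, where Slc22a2 (0.028) and Slco1a6 (0.21) in WT mice turned positive. Called genes among all tested, 6879 in WT and 5038 in Cfb-/- mice, were 4025 and 1020 with that covariate. Their split into higher and lower genes in WT mice was 5392 and 1487 as deposited, 3844 and 2662 with median-ratio scaling, and 2366 and 2992 with quantile normalization, and in Cfb-/- mice, in the same order of scalings, it was 4083 and 955, 3044 and 1687, and 2146 and 2228. Between genotypes 1 gene was called in control mice, 3 with no filter and 4 with the compared groups alone, and 1 in diabetic mice, 2 with no filter and 3 with the compared groups alone. The cause was not tested.

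Small differences between genotypes changed sign. In control mice Slc22a2 was at -0.036 after median-ratio scaling, and after quantile normalization Slc22a6 was at 0.18, Slc22a12 at 0.077 and Slco1a6 at 0.12. In diabetic mice Slc22a13 was at 0.028 after quantile normalization. The interaction of Slc22a8 was 0.0023 with a pseudocount of 1 and 0.014 after median-ratio scaling, and after quantile normalization that of Slc22a12 was -0.094 and that of Slc47a1 -0.027.

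Leaving out 1 mouse at a time gave 6 to 9 transporters called in WT and 7 to 9 in Cfb-/- mice, and 0 to 0 between genotypes and for the interaction. All called genes were 4775 to 7503 in WT, 3717 to 5568 in Cfb-/-, 1 to 1711 between genotypes in control mice, 1 to 6 in diabetic mice and 0 to 4 for the interaction. The count of 1711 came without the first WT control mouse. Genotype differences in control mice ranged from -0.20 to 1.60 for Slc22a13, -0.076 to 0.12 for Slc22a2, -0.11 to 0.020 for Slc22a6, -0.0072 to 0.95 for Slc22a7 and -0.065 to 0.039 for Slco1a6, and in diabetic mice from -0.22 to 0.10 for Slc22a13 and -0.22 to 0.48 for Slc22a7. The interaction ranged from -0.022 to 0.19 for Slc22a12, -1.61 to 0.18 for Slc22a13, -0.89 to 0.065 for Slc22a7 and -0.26 to 0.32 for Slc22a8.

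Mice with the same replicate number did not deviate together, with r of -0.388 to 0.243 over 19 pairs, so that the numbers were not taken as pairs. With the replicate number as a block, 6278 genes were called in WT and 4463 in Cfb-/- mice, 1 in each comparison of genotypes and 0 for the interaction, and in WT mice Slc22a7 (-1.48, adjusted p = 0.0545 by limma) and Slc22a13 (1.96, adjusted p = 0.0527 by limma) no longer passed.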
